A study of Mus musculus with 24 samples.

Results

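Genes for 9 hypothalamic feeding peptides, Npy, Agrp, Cartpt, Hcrt, Gal, Pmch, Nts, Npb and Trh, were looked up by symbol in the annotation of a mouse whole-genome array, and each gene was to be represented by its brightest probe. Of the 9 genes, 7 matched an annotated probe, 1 each, and all 7 were among the 16506 probes tested in brain. The array holds 33012 probes, of which 14411 have 1 symbol in the annotation. Agrp and Pmch matched no probe by symbol, gene ID or accession and were not analysed here. The paper reports that Agrp missed its signal/noise limit, which implies a probe that the annotation used here does not name. For Pmch, whether the array carries an unannotated probe cannot be told from this. The paper lists a row named MCH under the symbol Ddt, which was not used here. RNA of whole brain from male mice, 12 weeks old, was hybridised to 12 arrays, 3 mice in each of 4 groups, and RNA of liver from the same design to another 12. Acads+/+ mice (BALB/cByKZ) and Acads-/- mice (BALB/cByJ, which lack short-chain acyl-CoA dehydrogenase through a spontaneous deletion in Acads) were fed a high-fat (HF) or a low-fat (LF) diet for 2 days. The substrains had been bred apart, so genotype and substrain cannot be told apart in any comparison. The study asked how the brain of mice with impaired oxidation of short-chain fatty acids responds to dietary fat.

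Feeding peptides are cut from larger precursor proteins, packed into dense-core granules and released from neurons to act on receptors coupled to G proteins. In the arcuate nucleus, neurons making neuropeptide Y (Npy) and agouti-related peptide (Agrp) promote feeding, and neurons making the cocaine- and amphetamine-regulated transcript (Cartpt) together with melanocortins restrain it. In the lateral hypothalamus, separate neurons make orexin (Hcrt) and melanin-concentrating hormone (Pmch), which promote feeding and, for orexin, wakefulness. Whole brain is not hypothalamus: Npy, Cartpt, Gal, Nts and Trh are also made in other regions, and in these bulk samples fewer cells of a type and less RNA per cell cannot be told apart.

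The RefSeq promoter table (GRCm38.p6) held 1 start site for each of 6 of the measured genes. The 200 bases before the start of 4 of them are shown, for 3 peptides that fell together on HF diet and for Trh, which did not pass the test, so that the elements they share can be read against the values. Capitals mark matches, on either strand, to the cyclic AMP response element TGACGTCA or its half-site TGACG, to TATAAA and to GGGCGG. The half-site lies within the full element, and the search covered the 250 bases before the start. For Cartpt the start lies inside the annotated gene, which reaches further upstream.
Npy, chr6:49822510-49822709, plus strand: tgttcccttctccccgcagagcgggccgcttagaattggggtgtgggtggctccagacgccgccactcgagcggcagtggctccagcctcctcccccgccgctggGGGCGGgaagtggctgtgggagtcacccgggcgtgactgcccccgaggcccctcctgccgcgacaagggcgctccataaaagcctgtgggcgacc
Cartpt, chr13:99900684-99900883, minus strand: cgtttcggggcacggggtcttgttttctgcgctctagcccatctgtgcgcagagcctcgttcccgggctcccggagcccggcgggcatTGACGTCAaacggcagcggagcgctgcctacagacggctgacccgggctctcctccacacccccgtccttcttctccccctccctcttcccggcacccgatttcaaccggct
Hcrt, chr11:100762932-100763131, minus strand: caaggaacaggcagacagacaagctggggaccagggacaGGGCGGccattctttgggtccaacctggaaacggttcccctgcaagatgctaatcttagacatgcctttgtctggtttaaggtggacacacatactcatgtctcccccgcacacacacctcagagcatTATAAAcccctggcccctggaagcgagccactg
Trh, chr6:92244651-92244850, minus strand: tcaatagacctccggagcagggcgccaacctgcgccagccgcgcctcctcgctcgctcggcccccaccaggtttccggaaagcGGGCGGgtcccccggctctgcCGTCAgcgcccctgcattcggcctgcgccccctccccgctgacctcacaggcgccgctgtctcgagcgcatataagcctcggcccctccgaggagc
The full cyclic AMP response element, the site bound by CREB, was found in 1 of the 6 promoters, that of Cartpt, 112 bases before the start, and in 1.55% of all 32851 promoters. The half-site was present in Cartpt, Nts and Trh, 3 of 6, against 17.8% of all promoters. TATAAA was present in Hcrt alone, 33 bases before the start, against 12.4% of all promoters. GGGCGG was present in 5 of 6 (Npy, Cartpt, Hcrt, Gal and Trh), against 32.7%. No element searched was shared by the 6 genes, and Trh carried the half-site and GGGCGG as Cartpt did.

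Signals were quantile-normalised over the 12 arrays of a tissue and are given as log2, 1 value per mouse. Calls were made with limma over all 12 brain arrays and needed a fold change of at least 1.6 and, after Benjamini-Hochberg adjustment over all tested probes, a p under 0.05. Where 1 mouse is meant, its brain array is named by the number in its column of the deposited intensities. Numbers such as 18018 and 18022 also head liver columns, and the labels do not say what they number. The Acads+/+ HF arrays stood apart from the rest. On the first principal component, which held 49.2% of the variance, they lay at -108 to -46.3 and the other 9 arrays at 18.6 to 33.8. On them, log2 signal relative to the Acads+/+ LF mean was higher for genes with a longer genomic span, from start to end (Spearman rho across genes 0.336 to 0.428, against -0.144 to 0.10 on the other 9). Acads itself was at 9.87 to 11.9 on the 6 Acads+/+ arrays and 7.90 to 10.02 on the 6 Acads-/- arrays, which overlapped on 1 array of each genotype, and where its probe lies relative to the deletion is not given in the sources used here.

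In Acads+/+ brain, 6 of the 7 peptide genes were lower on HF than on LF diet, and the 7th, Trh, did not pass the fold-change threshold or the test. The fall was 4.10-fold for Cartpt, 3.77-fold for Npy, 3.75-fold for Hcrt, 2.99-fold for Gal, 2.63-fold for Npb and 2.57-fold for Nts. Both a peptide that promotes feeding, Npy, and one that the paper groups with those that restrain it, Cartpt, were among those that fell. The paper also cites evidence that the Cartpt peptide can promote feeding. Several of these genes were singled out by the study on these samples, so their number is not independent evidence of the direction. The study's quantitative RT-PCR in hypothalamus, not whole brain, found no significant change of Npy or Cartpt on HF diet in Acads+/+ mice. The same held for both genes between the genotypes on HF diet. By that method Agrp, not analysed here, was significantly lower on HF diet in Acads+/+ mice. Over the 7 genes the median log2 fold change was -1.58, against 0.12 over all tested probes. Of all tested probes 32.9% were called in this comparison and 17.3% were called lower.

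Npy, the arcuate and cortical peptide that stimulates feeding, had log2 signals of 15.98, 14.72 and 15.87 in the 3 Acads+/+ mice on HF diet and 17.53, 17.47 and 17.30 in those on LF diet. In Acads-/- brain it had 16.98, 17.02 and 17.30 on LF diet and 17.28, 17.32 and 17.28 on HF diet. The 3 Acads+/+ HF arrays lay below the other 9, with array 18022 lowest. In the deposited signals, before normalisation, those 3 arrays were also the lowest for Npy, at 32086 to 89529 against at least 105971 on the other 9, and for Hcrt, at most 6026 against at least 7314. For Cartpt, Gal and Nts the highest Acads+/+ HF array, at 28428, 10755 and 14376, lay above the lowest of the other 9, at 25135, 8308 and 8789. For Npb the groups overlapped before normalisation too, and for Trh the mean signal was 17483 on HF and 17235 on LF diet in Acads+/+ brain. The log2 fold change of HF against LF diet in Acads+/+ brain was -1.91 (standard error 0.27, adjusted p = 0.000584 from limma).

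The paper groups the Cartpt peptide with those that restrain feeding. Cartpt had 14.23, 13.13 and 13.74 in Acads+/+ mice on HF diet and 15.91, 15.65 and 15.64 in those on LF diet. The Acads-/- mice had 14.92, 15.30 and 15.40 on LF and 15.15, 15.42 and 15.35 on HF diet. All Acads+/+ HF arrays were below all others, and all Acads+/+ LF arrays were above all others. The diet change in Acads+/+ brain was -2.04 (standard error 0.25, adjusted p = 0.000298 from limma), the largest of the 7 genes.

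Hcrt encodes the precursor of the orexins and is made only by neurons of the lateral hypothalamus and its surroundings, so its signal in whole brain comes from a small group of cells. On the Acads+/+ HF arrays it had 11.25, 11.15 and 12.44, and on the Acads+/+ LF arrays 13.55, 13.54 and 13.47. Acads-/- mice had 12.86, 12.99 and 13.52 on LF and 13.44, 13.68 and 12.93 on HF diet. Array 18018 of the Acads+/+ HF group was the highest of its group, at a level still below the other 9 arrays. The diet change in Acads+/+ brain was -1.91 (standard error 0.33, adjusted p = 0.00139 from limma).

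Gal, the precursor of galanin, which stimulates fat and food intake when injected into the rat hypothalamus, had 12.79, 11.80 and 12.32 in Acads+/+ mice on HF diet and 13.79, 13.73 and 14.13 in those on LF diet. The 6 Acads-/- arrays lay within 13.81 to 14.25. Nts, the precursor of neurotensin, a peptide that reduces food intake, had 13.21, 12.28 and 12.48 in Acads+/+ mice on HF diet and 14.14, 14.01 and 13.93 in those on LF diet, with the 6 Acads-/- arrays at 13.89 to 14.35. For both genes the Acads+/+ HF arrays lay below the other 9 and the remaining 3 groups overlapped. The diet change in Acads+/+ brain was -1.58 for Gal (standard error 0.23, adjusted p = 0.000684 from limma) and -1.36 for Nts (standard error 0.22, adjusted p = 0.00119).

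Npb, the precursor of neuropeptide B, a ligand of the receptor Npbwr1, was the most variable of the 7 genes. By mean signal in brain 51.5% of all probes lay below it, so it was only just among the brighter probes that were tested. Its mean deposited signal was 2129 in Acads-/- HF brain, against 644, 1300 and 1425 in Acads+/+ HF, Acads+/+ LF and Acads-/- LF brain. In log2 signal Acads+/+ mice had 8.23, 8.61 and 10.26 on HF and 10.71, 9.76 and 10.81 on LF diet, so these groups overlapped. In Acads-/- brain it had 10.03, 10.54 and 10.91 on LF and 11.49, 11.36 and 11.16 on HF diet, without overlap. The diet change in Acads+/+ brain was -1.39 (standard error 0.47, adjusted p = 0.0329 from limma), the weakest of the 6 calls. It was lost when any of arrays 18017, 18022, 17962 or 18021 was left out, with log2 fold changes of -1.26 to -0.97 and adjusted p of 0.0983 to 0.116, and also with array weights (-0.55, adjusted p = 0.238).

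Trh encodes thyrotropin-releasing hormone, which drives the pituitary-thyroid axis from the paraventricular nucleus and is also made in other brain regions. Acads+/+ mice had 13.74, 13.64 and 13.85 on HF diet, and on LF diet 14.07, 14 and 14.51. Acads-/- mice had 14.24, 13.81 and 14.34 on LF and 14.20, 14.18 and 14.34 on HF diet. The Acads+/+ HF arrays did not overlap with the Acads+/+ LF arrays, but the lowest Acads-/- LF array lay within their range. The diet change in Acads+/+ brain was -0.45 with a 95% interval of -0.85 to -0.06 (adjusted p = 0.0605 from limma).

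**Figure D1:**
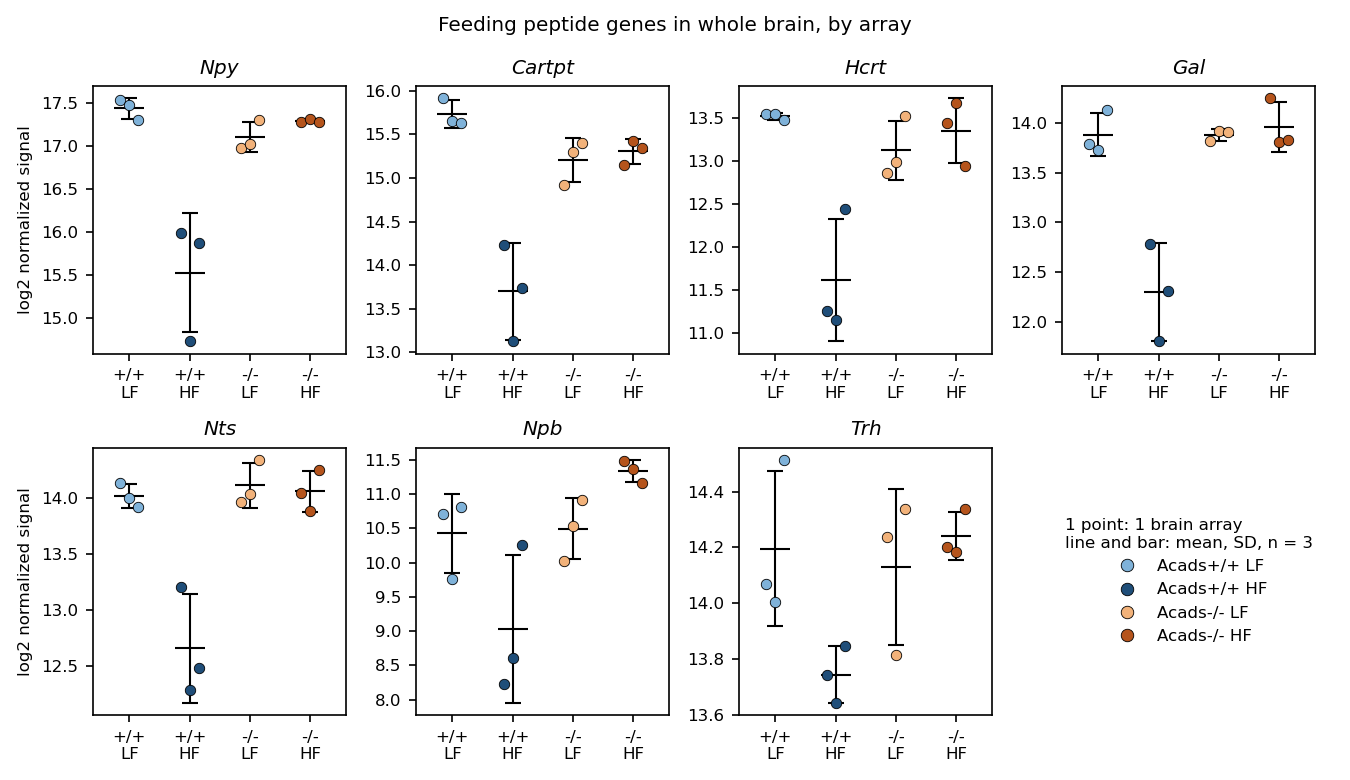
Log2 normalised signal (y axis) of the 7 peptide genes on each of the 12 brain arrays, by genotype and diet (x axis); points are mice, and lines and bars are the mean and SD of 3. The Acads+/+ HF arrays are below all other arrays for Npy, Cartpt, Hcrt, Gal and Nts, overlap with others for Npb, and lie near the others for Trh.

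The 3 Acads+/+ HF arrays were below all other 9 arrays for 5 of the 7 genes, which held for 16.4% of all tested probes. On HF and LF diet the Acads+/+ arrays did not overlap for 6 of the 7 genes, all but Npb, where 23.8% of all tested probes were lower without overlap. The ordering of the mice was similar from gene to gene: array 18022 was the lowest of the 12 for Npy, Cartpt, Hcrt, Gal, Nts and Trh, and array 18017 for Npb. The median over the 7 genes relative to the Acads+/+ LF mean was -2.08 on array 18022, -1.54 on array 18018 and -1.46 on array 18017, and between -0.40 and 0.10 on the other 9. The 2 lowest of these 9, at -0.40 and -0.38, were Acads-/- LF arrays.

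In Acads-/- brain none of the 7 genes was called between HF and LF diet. Of all tested probes 0% were called with limma. At unadjusted p with the same fold 0 members passed, and 4.86% of all tested probes. The log2 fold changes of the members were between -0.05 for Nts and 0.84 for Npb. For Npy the value was 0.19 (95% interval -0.41 to 0.80), for Hcrt 0.23 (95% interval -0.49 to 0.95) and for Cartpt 0.10 (95% interval -0.45 to 0.64). None of these intervals reached the fall measured in Acads+/+ brain. Npb was the only member whose groups did not overlap, higher on HF diet (95% interval -0.19 to 1.88, adjusted p = 0.575 from limma), where 8.13% of all tested probes were higher without overlap.

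The effect of HF diet differed between the genotypes for 6 of the 7 genes by the test of the interaction, in which 22.7% of all tested probes were called and 12.1% were called in the same direction as the peptides. The diet effect in Acads-/- minus that in Acads+/+ mice was 2.24 for Npb (standard error 0.66, adjusted p = 0.0337 from limma), 2.14 for Hcrt, 2.13 for Cartpt, 2.11 for Npy, 1.66 for Gal and 1.31 for Nts. For Trh it was 0.56 (95% interval 0.0033 to 1.12, adjusted p = 0.126 from limma).

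On HF diet the same 6 genes were higher in Acads-/- than in Acads+/+ brain. This comparison shares the Acads+/+ HF arrays with the diet comparison, so the members' values in both stand side by side and are not separate evidence. The difference was 4.94-fold for Npb, 3.41-fold for Npy, 3.33-fold for Hcrt, 3.16-fold for Gal, 3.05-fold for Cartpt and 2.65-fold for Nts. Npb lay close to the cutoff on mean signal, and that mean included Acads-/- HF, its highest group. The log2 values were 2.30 for Npb (standard error 0.47, adjusted p = 0.00298 from limma), 1.77 for Npy (standard error 0.27, adjusted p = 0.000727) and 1.40 for Nts (standard error 0.22, adjusted p = 0.000862). Of all tested probes 34.9% were called and 17.5% were called higher in Acads-/- mice. Trh had 0.50 (95% interval 0.10 to 0.89, adjusted p = 0.0415 from limma), 1.41-fold and under the fold-change threshold. Acads-/- and Acads+/+ arrays on HF diet did not overlap for any of the 7 genes, with Acads-/- higher, as for 22.3% of all tested probes.

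On LF diet 0 of the 7 genes were called between the genotypes with limma, and 0.0182% of all tested probes. At unadjusted p with the same fold 0 members passed, and 1.97% of all tested probes. Npy and Cartpt were lower in Acads-/- brain without overlap of the groups, 2 of 7 genes, where this held for 7.01% of all tested probes. The log2 differences were -0.53 for Cartpt (95% interval -1.07 to 0.02) and -0.34 for Npy (95% interval -0.94 to 0.27), and the other 5 genes lay between -0.40 and 0.09. Between Acads-/- mice on HF and Acads+/+ mice on LF diet, 0 of the 7 genes were called with limma, and 0.0303% of all tested probes. At unadjusted p with the same fold 0 members passed here, and 3.15% of all tested probes. The members ranged from -0.43 for Cartpt to 0.91 for Npb, with a median of 0.04.

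**Figure D2:**
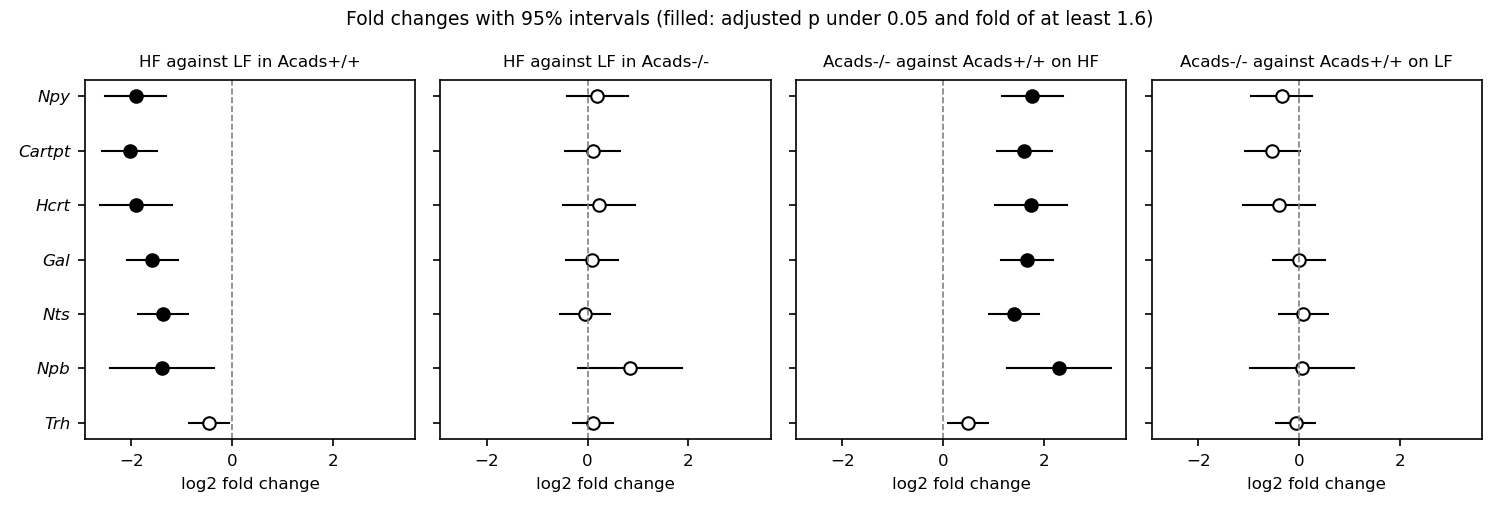
Log2 fold change (x axis) of each peptide gene (y axis) in 4 comparisons of brain groups, with 95% intervals from limma; filled points passed the test and the fold threshold. In HF against LF diet in Acads+/+ brain the filled points lie between -2.04 and -1.36, in Acads-/- against Acads+/+ brain on HF diet between 1.40 and 2.30, and the other comparisons hold no filled point.

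By mean level the 4 groups fell in the order Acads+/+ LF, Acads-/- HF, Acads-/- LF and Acads+/+ HF for Npy (17.44, 17.29, 17.10 and 15.52), Cartpt (15.73, 15.31, 15.21 and 13.70) and Hcrt (13.52, 13.35, 13.12 and 11.61). The first 3 of these groups did not differ beyond the test in any of the comparisons made between neighbours. For Gal the Acads-/- HF mean was highest, 13.96, followed by Acads+/+ LF and Acads-/- LF, both 13.88, and Acads+/+ HF, 12.30. For Nts the order was Acads-/- LF, 14.12, Acads-/- HF, 14.06, Acads+/+ LF, 14.02, and Acads+/+ HF, 12.66. Acads+/+ HF was the lowest group mean for all 7 genes. The spread between mice of that group was wider than in the Acads+/+ LF group for all genes but Trh, with an SD of 0.70 for Npy, 0.72 for Hcrt and 1.08 for Npb, against 0.12, 0.04 and 0.58 (n = 3 each). For Trh the SD was 0.10 against 0.28.

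In the RefSeq annotation (GRCm38.p6) Npy lies at chr6:49822710-49829507 and Trh on the same chromosome at chr6:92242061-92244650. Hcrt, at chr11:100761693-100762931, and Npb, at chr11:120608477-120609100, share another. Cartpt lies at chr13:99898483-99910179, Gal at chr19:3409915-3414544 and Nts at chr10:102481756-102490418. The 7 genes share a short genomic span, which the choice of members did not use. Spans ran from 624 bases for Npb to 11697 for Cartpt, with a median of 4630 against 20144 for all genes with a span. Across 8739 genes, which are not independent replicates, the diet fold change in Acads+/+ brain rose with span (Spearman rho 0.421) and the genotype fold change on HF diet fell with it (-0.405). Genes under 12000 bases, a limit just above the span of the longest member, include all 7 members. Among the tested probes of such genes 27.2% were called lower on HF diet in Acads+/+ brain and 27.7% higher in Acads-/- brain on HF diet. After a trend of signal on span was taken out of every array, the diet change in Acads+/+ brain was -2.05 for Cartpt, -1.73 for Npy, -1.27 for Nts, -1.25 for Gal and -1.07 for Hcrt, all 5 still called, with limma adjusted p of 0.000401 to 0.0339. Npb had -0.29 (adjusted p = 0.674) and Trh 0.10 (adjusted p = 0.694). In the genotype comparison on HF diet Cartpt, Npy, Gal and Nts were still called, at 1.31 to 1.63, and Hcrt (0.94, adjusted p = 0.0502) and Npb (1.27, adjusted p = 0.0660) were not. This refit covered only probes of genes with a span. The share of all its probes that were called is not given, so these calls describe the members alone.

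**Figure D3:**
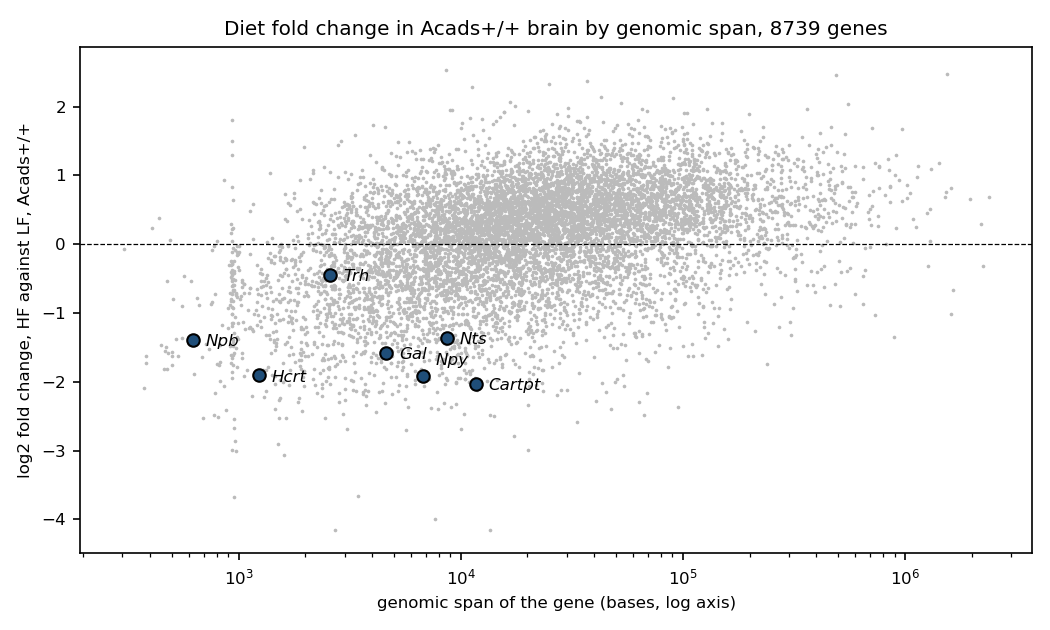
Log2 fold change of HF against LF diet in Acads+/+ brain (y axis) against genomic span in bases (log x axis) for 8739 genes (grey points), with the 7 peptide genes in blue. All 7 lie left of 12000 bases and below 0, and fold changes rise with span (Spearman rho 0.421).

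With the methods' t-test and Benjamini-Hochberg adjustment over all tested probes, Cartpt was the 1 member called for diet in Acads+/+ brain (adjusted p = 0.0451), where 8.32% of all tested probes were called. For genotype on HF diet 0 members were called, with 0.418% of all probes. At unadjusted p the same test called 5 and 6 members, with 28.9% and 28.5% of all tested probes.

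The change of the peptide genes was set beside that of their receptors, of the enzymes that process and degrade them and of other precursors, from lists chosen with earlier results of these data known. Of 28 other neuropeptide precursors 19 were tested, and 11 fell, 0 rose and 8 were not called on HF diet in Acads+/+ brain, with a median of -0.88, where 17.3% of all tested probes were called lower. Among those not called, Pdyn, Penk and Adcyap1 had values above 0, at 0.38, 0.24 and 0.21, and were picked out after their values were seen. Avp and Oxt, the precursors of vasopressin and oxytocin, had -2.06 and -1.94, and Tac2, the precursor of neurokinin B, -1.56 (limma adjusted p = 0.000286, 0.000392 and 0.000766). Pomc, the precursor of the melanocortins that act against Agrp, had -2.07 with a standard error of 2.38 and was not called. Pomc is also made in the pituitary, and the summed signal of 5 measured pituitary markers ran from 8086 to 2051950 among the 3 Acads+/+ LF arrays. In the genotype comparison on HF diet 11 of the 19 precursors rose and 0 fell, where 17.5% of all tested probes were called higher.

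Of 20 listed receptor genes 9 were tested, and 3 rose and 0 fell on HF diet in Acads+/+ brain, where 15.5% of all tested probes were called higher. They were Sort1 with 1.22, Npy1r with 0.89 and Mchr1 with 0.87 (limma adjusted p = 0.00115, 0.0486 and 0.00586). Sort1 encodes sortilin, a neurotensin-binding sorting receptor. Mchr1 is the receptor of melanin-concentrating hormone, whose precursor gene Pmch was not analysed here. Between the genotypes on HF diet 4 of the 9 were lower in Acads-/- brain, against 17.4% of all tested probes, and 1 was higher. The 4 were Npy1r with -1.17, Sort1 with -1.05, Npy5r with -1.0 and Mchr1 with -0.74, and the 1 that was higher was Trhr2, a receptor of thyrotropin-releasing hormone, with 1.48.

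In HF against LF diet in Acads+/+ brain 15.5% of all tested probes were called higher and 17.3% lower. Of 11 tested genes for proteins that convert and store the precursors 4 rose, 0 fell and 7 were not called in this comparison. Those that rose were Scg2 with 1.04, Scg3 with 0.83, Chgb with 0.83 and the prohormone convertase Pcsk1 with 0.74. The same 4 were lower in Acads-/- than in Acads+/+ brain on HF diet, at -1.27 to -0.87, where 17.4% of all tested probes were called lower. Of 6 tested peptidases 2 rose, Ece2 with 0.83 and Prep, which cleaves after proline, with 0.80, and 0 fell. Of 6 tested hypothalamic transcription factors 3 fell and 0 rose: Six3 with -1.06, Isl1 with -0.93 and Bsx, which is required for Npy and Agrp expression in mouse arcuate neurons, with -0.90. Of 3 tested receptors for hormone and nutrient signals, Prlhr fell with -1.17. In Acads-/- brain between the diets 0 genes of these 6 lists were called with limma.

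**Figure D4:**
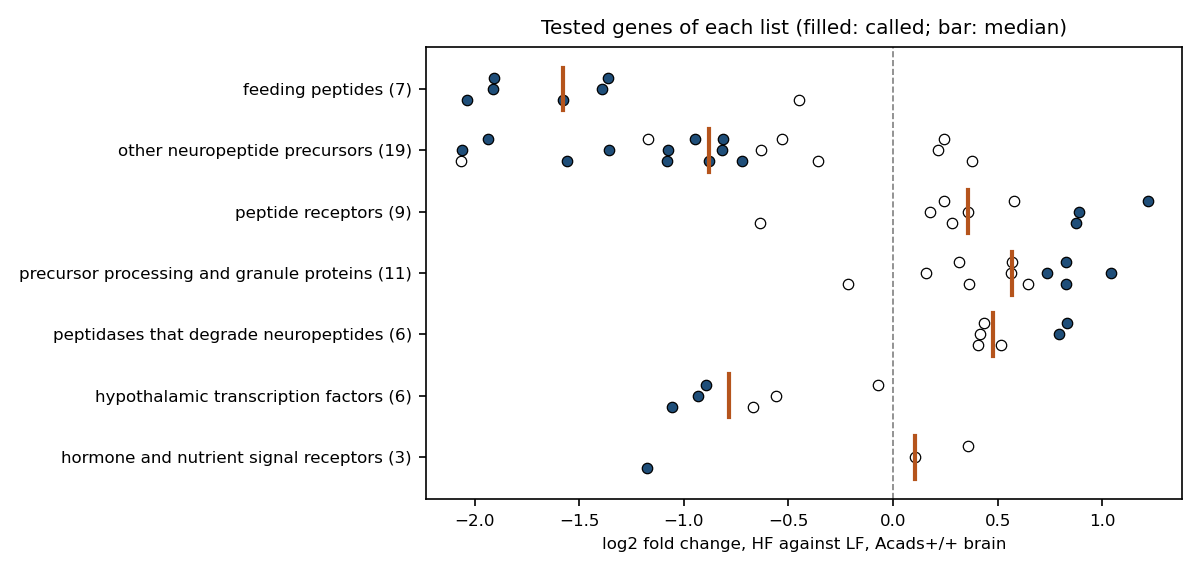
Log2 fold change of HF against LF diet in Acads+/+ brain (x axis) for the tested genes of each list (rows, with the number tested); filled points were called and bars are medians. The feeding peptides have a median of -1.58 and the other precursors -0.88, while receptors, processing proteins and peptidases have medians of 0.36, 0.57 and 0.48.

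Markers of brain cell types also differed on the Acads+/+ HF arrays. For diet in Acads+/+ brain 15.5% of all tested probes were called higher and 17.3% lower. Of 7 measured neuronal markers 4 rose and 2 fell in the diet comparison, among them Gad1 with 1.19 and Snap25 with -2.16, and their summed signal was 1829140 to 2015520 on the Acads+/+ HF arrays against 1293380 to 1575430 on the other 9. Of 4 oligodendrocyte markers 2 rose and 0 fell, with sums of 428220 to 833475 against 173702 to 283193. Of 2 blood markers 1 rose and 1 fell: Alas2, of haem synthesis in red cell precursors, with 1.02, and the haemoglobin gene Hba-a1 with -1.76, and the blood sum was 71225 to 135801 against 295542 to 438455. Of the other lists 1 of 3 microglial markers rose and 1 fell, 1 of 4 markers each of choroid plexus and pituitary fell, and 0 of 2 astrocyte and 0 of 5 hepatocyte markers were called with limma. Gad1, Snap25, Alas2 and Hba-a1 were picked out after their values were seen. The part of cell composition in the change of the peptide genes was not tested.

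Over the 12 brain arrays the genes whose profile was most like the median profile of the members were Snrpd2, which encodes a core protein of the spliceosome, with Pearson r = 0.989, the platelet chemokine Pf4 (0.987), Ndufb3 of respiratory complex I (0.986), the histone gene H2ac22 (0.986) and Rbx1 of cullin ubiquitin ligases (0.986). Pf4 had 1 array at the lowest value allowed. Of all tested probes 1521, or 9.21%, had r of at least 0.9 with this profile. The members themselves had 0.983 for Npy, 0.967 for Cartpt, 0.961 for Gal, 0.956 for Nts, 0.927 for Hcrt, 0.791 for Npb and 0.786 for Trh. These correlations are a description, since the 12 arrays fall into 4 groups of which 1 stands apart.

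In liver, used as a check of background, the probes of 5 of the 7 genes lay below the median of mean signal, and Gal and Npb lay above it. The deposited signal of Npy was 124 to 1786 on the liver arrays against 32086 to 230351 on the brain arrays, and that of Cartpt 133 to 1013 against 11447 to 56283. The lowest brain array was 17.96 times the highest liver array for Npy, 18.1 times for Trh, 17 times for Nts, 11.3 times for Cartpt, 2.36 times for Gal and 1.84 times for Hcrt. For Npb the tissues overlapped, at 352 to 2820 in brain and 376 to 838 in liver, and its lowest brain arrays were in the Acads+/+ HF group. No test was made between tissues. In 5 comparisons within liver 0 of the 7 genes were called with limma, and 1 of 35 member tests passed at unadjusted p with the same fold. Of the tested liver probes 0.109% were called for diet in Acads-/- mice and 0% in the other 4 comparisons.

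**Figure D5:**
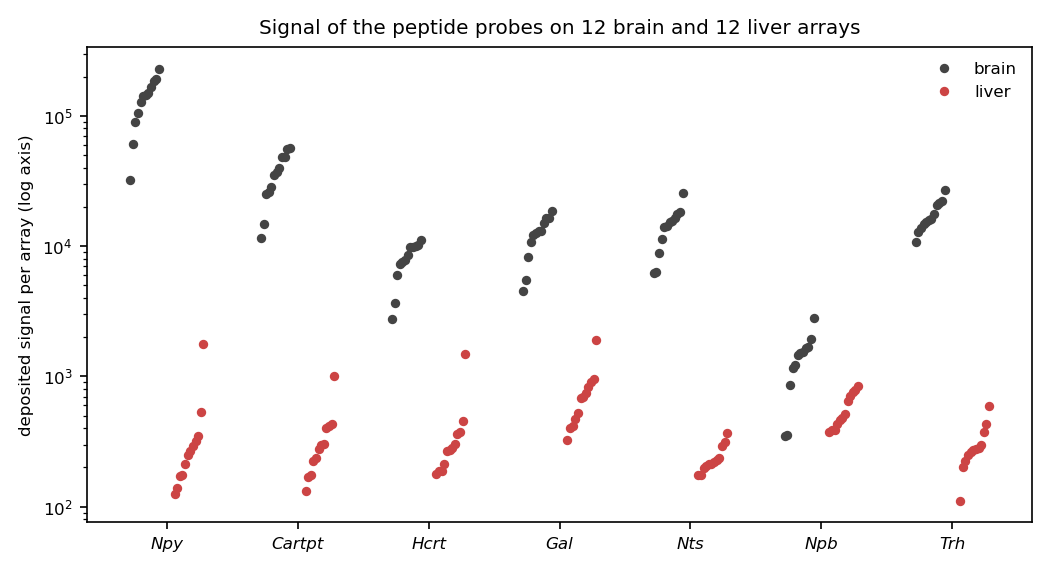
Deposited signal (log y axis) of the 7 peptide probes on 12 brain arrays (grey) and 12 liver arrays (red), 1 point per array. Brain lies above liver without overlap for 6 genes, and for Npb the brain range of 352 to 2820 overlaps the liver range of 376 to 838.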

How the data were processed

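Whole brain and liver RNA of 24 samples was hybridised to Mouse Genome Survey arrays (Applied Biosystems, one colour). Groups follow the labels. Among LF livers, 1 label field names a high-fat diet, and the title and treatment field, which give LF, were used. The signal intensity values were deposited by the authors as extracted with the analyzer software, not normalised between arrays. A second, log2 table from the authors, quantile-normalised within tissue, serves here as an alternative and for the replicate numbers, which the intensity columns lack. Signal/noise ratios and flags were not used here, so a filter on mean signal replaced the detection filter.

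Intensities were quantile-normalised over the 12 arrays of a tissue, a lowest value was set at the 5th percentile (signal 235 in brain and 142 in liver), and values were taken to log2. No brain value of a member lay at this floor. The brighter probes, by mean signal against its median, were fitted with limma 3.58.1 in R 4.3.3 with 4 group means, and members below it in liver are given from a fit over all probes. The median residual SD of a brain probe was 0.271. Each group has 3 arrays, which limits the precision. A limma p-value sets a group difference against a spread between mice that is pooled over the 4 groups and moderated across probes. The fit was tested on simulated data. Of the probes 14411 have 1 symbol in the platform annotation and 247 several. The members, the 6 gene lists, the markers and the comparisons were chosen with earlier results of these data known. Named genes are the members, up to 4 tested genes of each list with the largest change in the comparison described, the 5 most similar genes by Pearson r, and Acads. Marker genes, 3 precursors (Pdyn, Penk and Adcyap1) and Mchr1 in the genotype comparison fall outside this rule and were named after their values were seen. Genomic spans and promoters are those of RefSeq. The motifs were chosen with the values known. Alternatives were median scaling, an offset of 500, the authors' values, no filter, the 25% of brightest probes, array weights, a replicate block, a fit of only the compared groups, the methods' t-test with and without adjustment, limma's unadjusted p, a covariate for the main within-group axis, removal of the span trend and each array left out in turn; a fit without the Acads+/+ HF arrays and the alternatives in liver were added after the data were seen.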

Additional observations from a re-analysis of the deposited data

Results flagged for a closer look

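For 6 peptide genes the effect of HF diet on brain signal differed between Acads-/- and Acads+/+ mice by the test of the difference itself, an interaction term in limma. The difference on the log2 scale was 2.11 for Npy (adjusted p = 0.00508 from limma), 2.13 for Cartpt (adjusted p = 0.00321), 2.14 for Hcrt (adjusted p = 0.00940), 1.66 for Gal (adjusted p = 0.00681), 1.31 for Nts (adjusted p = 0.0155) and 2.24 for Npb (adjusted p = 0.0337). Among all tested probes 22.7% passed the same test. All 6 values use the Acads+/+ HF arrays, which stood apart on the first principal component. For Npb, which lay close to the cutoff on mean signal, the diet change of 0.84 in Acads-/- brain also contributed, beside -1.39 in Acads+/+ brain.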

How the results depend on the processing

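Leaving out each array in turn gave 5 to 6 members called for diet in Acads+/+ brain (23.5% to 40.3% of all probes), 6 for genotype on HF diet (26% to 42.1%), 5 to 6 for the interaction (14.6% to 34%) and 0 for the other 3 comparisons. With the methods' t-test and Benjamini-Hochberg adjustment 1 member was called for diet in Acads+/+ brain and 0 for genotype on HF diet, and with its unadjusted p 1 member, Npb, was called for diet in Acads-/- brain (1.79% of all probes). The fold change of Trh changed sign when the trend on genomic span was removed, to 0.10 for diet in Acads+/+ brain and -0.041 for genotype on HF diet. Of 346 member values under the alternatives for these 2 comparisons, 322 kept their direction and their side of the threshold, 22 fell short of it and 2 changed sign. With the replicate block, for which the authors' log2 table was used, 6, 6 and 6 members were called for diet in Acads+/+ brain, genotype on HF diet and the interaction, and 0 in the others, so it changed no count. Same-numbered samples of different groups had correlations of -0.178 to 0.216 in their deviations over 18 pairs, 3 of them above 0.1. Differently numbered samples had -0.166 to 0.229 over 36 pairs, 4 of them above 0.1. Of 12 samples 7 correlated best with their own number. Whether same-numbered samples share more than a number cannot be told from these values. Without a filter 5 members were called for diet in Acads+/+ brain and 4 for the interaction, and the percentages of all probes called were 15.1% and 5.64%. With 25% of probes 5 members were tested and 4 called in each. The shares of all probes called are not given for this setting or the replicate block, so these counts describe the members alone. Each member has 1 annotated probe, so the mean over probes gave no other value. Without the Acads+/+ HF arrays 0 members were called in the 3 comparisons that remain. In liver 0 were called under the 3 alternatives tried.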
